A study of Gallus gallus with 403 samples.

Results

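The 9 genes described here make or regulate the steroids of the gonad or mark its granulosa cells, the cells inside a follicle that surround the oocyte. They are STAR, CYP11A1, CYP17A1, HSD17B1 and CYP19A1 of steroid synthesis, and FOXL2, FSHR, INHA and AMH of granulosa cells. They were chosen by gene symbol, out of 13051 genes that the array measures with a probe set of 1 symbol. The choice was made with earlier results of these data known, so counts of members beside the share of all genes only describe. Each was read from the probe set that was brightest on average across the arrays, here called the chosen one, and the other 6 of their 15 probe sets are given beside it. The study profiled tissues of the chicken, Gallus gallus, on Affymetrix Chicken Genome arrays, each tissue at each age forming a group. Of these groups 96, with 387 arrays, were not gonadal, and 16 arrays in 5 groups came from gonads: ovarian cortex of week 16 (3 arrays, labelled female), ovary of week 17 (3, labelled male), ovary of year 2 (3, labelled female), oocytes of week 21 (4, of which 2 labelled male and 2 female) and testes of week 17 (3, labelled male). The groups that were not gonadal were of day 0 to day 56, all younger than the gonad groups. Organ and age therefore cannot be told apart in any comparison of gonads with other tissues. The free text of the year 2 ovary arrays gives the same number in weeks, and the title and source name were followed. The labels name no breed or treatment, and they number the arrays without saying that these were separate birds, so p-values measure only the spread between arrays, which may be technical.

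Steroid synthesis starts when STAR moves cholesterol into the mitochondrion, where CYP11A1 cleaves its side chain to give pregnenolone, the parent of all steroid hormones. CYP17A1 turns C21 steroids into androgens, CYP19A1, called aromatase, turns androgens into oestrogens, and HSD17B1 reduces oestrone to oestradiol. In the hen these steps are shared out over the wall of the follicle, with progesterone made mainly by granulosa cells, androgens by the theca interna and oestrogens by the theca externa. FOXL2 is a transcription factor of the ovary, FSHR the receptor of follicle-stimulating hormone, INHA the alpha subunit of inhibin and AMH the anti-Müllerian hormone, which granulosa cells and Sertoli cells secrete. In whole tissue, fewer cells of a type and less RNA per cell cannot be told apart.

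All values are log2 intensities as deposited, so a difference of 1 is a doubling. They compare groups for 1 probe set, not probe sets with each other. Differences are given ± SE from a model of the 16 gonad arrays, in which 12673 genes were tested, all 9 members among them. A gene passed when its p-value, adjusted over all these genes, was under 0.05 and its absolute log2 difference at least 1. The median SD between the arrays of a group was 0.117 for ovary of year 2 and 0.176 for ovarian cortex, but 0.383 to 0.388 for the other 3 groups, so the shared SE is too small for these. Single members departed from these medians. In year 2 the SD was 1.14 for HSD17B1 and 0.85 for CYP11A1, but 0.13 for CYP19A1. In cortex it was 0.78 for both STAR and CYP17A1, but 0.20 for FOXL2. The shared SE can therefore be too small for year 2 and cortex as well. In ovary of week 17, oocytes and testes, array 1 correlated more with the mean of the year 2 ovary (0.946, 0.907 and 0.759) than the other arrays did (0.885, 0.855 to 0.859, and 0.701 to 0.704). HINTW, which lies on the female W chromosome, read 9.96, 11.31 and 11.37 in the week 17 ovary arrays labelled male, 8.68 to 9.28 in the 4 oocyte-labelled arrays and 5.51 to 6.28 in testes. It thus went against the male label of the week 17 ovary arrays and did not follow the labelled sex among the oocyte-labelled ones. The oocyte growth factor GDF9 was not high in the latter, as given further on, and they are called oocyte-labelled throughout.

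STAR was highest in the younger ovary samples and lowest in testes. It read 10.54, 9.71 and 8.99 in ovarian cortex, 9.99, 8.73 and 11.26 in ovary of week 17, and 8.34, 9.03 and 8.03 in ovary of year 2. Oocyte-labelled arrays read 7.42, 7.74, 7.96 and 7.65, and testes 6.88, 7.14 and 6.09. The week 17 arrays spread over the range of the cortex and reached into that of year 2, while no testis array reached any array of another gonad group. It lay 3.29 ± 0.47 higher in ovary of week 17 than in testes (adjusted p = 5.94e-06), and oocyte-labelled arrays lay −2.30 ± 0.44 from ovary of week 17 (adjusted p = 0.000282). The difference of −1.53 ± 0.47 between ovary of year 2 and of week 17 passed (adjusted p = 0.0329), but without array 3 of each group it was −0.68 and no longer passed (adjusted p = 0.424), and it was also lost without array 1 (0.155). That between year 2 and cortex, −1.28 ± 0.47 (adjusted p = 0.0471), was −0.82 without array 1 (adjusted p = 0.433), and with the replicate number as a block its adjusted p was 0.0543. This call was also lost after quantile normalization (−1.12, adjusted p = 0.0839), with the probe sets of each gene averaged (0.0707) and without array 4 of the oocyte-labelled group (0.0562).

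CYP11A1 was high in every gonad group. Ovary of week 17 read 11.75, 11.67 and 10.83, ovarian cortex 10.19, 9.78 and 8.90, and ovary of year 2 10.25, 10.51 and 8.93. Oocyte-labelled arrays read 10.77, 11.56, 10.15 and 11.13, and testes 8.72, 9.22 and 9.22. All 16 gonad arrays lay above each of the 387 arrays of other tissues, of which the highest read 7.25. Ovary of week 17 and the oocyte-labelled arrays overlapped at the top, and cortex, year 2 ovary and testes overlapped below. Testes lay below ovary of week 17, by a difference of 2.36 ± 0.41 (adjusted p = 7.39e-05), and oocyte-labelled arrays 1.85 ± 0.38 above them (0.000397). Cortex lay −1.79 ± 0.41 from ovary of week 17 (adjusted p = 0.0043). Ovary of year 2 lay −1.52 ± 0.41 from it (0.0174), a call lost without array 1 or 2 of each group (−1.53 and −1.70, adjusted p = 0.0873 and 0.0855).

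CYP17A1 was high in ovary and testes alike and near the level of other tissues in the oocyte-labelled arrays. It read 12.86, 12.53 and 11.37 in ovarian cortex, 11.89, 10.47 and 11.07 in ovary of week 17, 11.95, 12.34 and 11.29 in ovary of year 2, and 11.07, 10.22 and 10.91 in testes. The oocyte-labelled arrays read 6.81, 7.29, 6.40 and 6.38, against a median of 6.90 over the arrays of other tissues. The gap between these arrays and every other gonad array was wider than the spread within any group. They lay −4.42 ± 0.37 from ovary of week 17 (adjusted p = 6.78e-09) and −4.01 ± 0.37 from testes (9.76e-09). Ovary of week 17 and testes overlapped and differed by 0.41 ± 0.40 (adjusted p = 0.456). Cortex and ovary of year 2 lay 1.52 ± 0.40 and 1.13 ± 0.40 above testes (adjusted p = 0.00327 and 0.0273), and without array 2 these were 1.12 and 0.63 and no longer passed (adjusted p = 0.0579 and 0.319). The second was also lost without array 1 (adjusted p = 0.0574).

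HSD17B1 had its own order, with ovary of year 2 at the top. There it read 12.33, 12.57 and 10.48, against 9.14, 8.15 and 7.56 in ovary of week 17 and 7.26, 7.13 and 6.89 in ovarian cortex. The oocyte-labelled arrays read 10.42, 9.08, 10.31 and 9.13, and testes 7.55, 5.85 and 6.69. The cortex mean of 7.09 and the testes mean of 6.70 lay below the median of the arrays of other tissues, 7.21, and all 3 arrays of year 2 lay above the highest of those, 9.05. All 4 oocyte-labelled arrays and 1 array of week 17 lay above it too. Year 2 lay 3.51 ± 0.51 above week 17 (adjusted p = 0.000108), 4.70 ± 0.51 above cortex (2.42e-06) and 5.10 ± 0.51 above testes (4.22e-08). Oocyte-labelled arrays lay −2.06 ± 0.48 from year 2 (adjusted p = 0.00269) and 2.64 ± 0.48 above cortex (0.00014). The difference between ovary of week 17 and testes, 1.59 ± 0.51, passed (adjusted p = 0.0165), but was lost with array weights (1.54, adjusted p = 0.216) and without array 2 (1.23, 0.16).

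CYP19A1 separated the 3 ovary groups from all else. By its chosen probe set it read 12.27, 11.82 and 11.37 in ovarian cortex, 11.09, 10.79 and 11.54 in ovary of week 17, and 11.94, 11.93 and 11.71 in ovary of year 2. Oocyte-labelled arrays read 5.12, 5.49, 5.28 and 5.83, and testes 5.09, 4.12 and 5.05, around the median of other tissues, 5.27. From testes to ovary of week 17 the difference was 6.39 ± 0.31 (adjusted p = 3.76e-13), and the oocyte-labelled arrays lay −5.71 ± 0.29 from ovary of week 17 (2.74e-12). Among the ovary groups the differences, from 0.04 to 0.72, did not pass. The other probe set, of the s_at type whose probes can match more than 1 transcript, held the gap to testes and to oocyte-labelled arrays but gave another order within ovary. It read 11.65, 11.54 and 11.52 in ovary of week 17, 10.16, 9.94 and 9.41 in cortex, and 10.12, 9.21 and 8.55 in year 2, listed from high to low, so that week 17 overlapped neither. By it cortex lay −1.73 and year 2 −2.28 from week 17 (adjusted p = 0.000836 and 8.92e-05). Which probe set follows the gene within ovary was not tested.

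**Figure D1:**
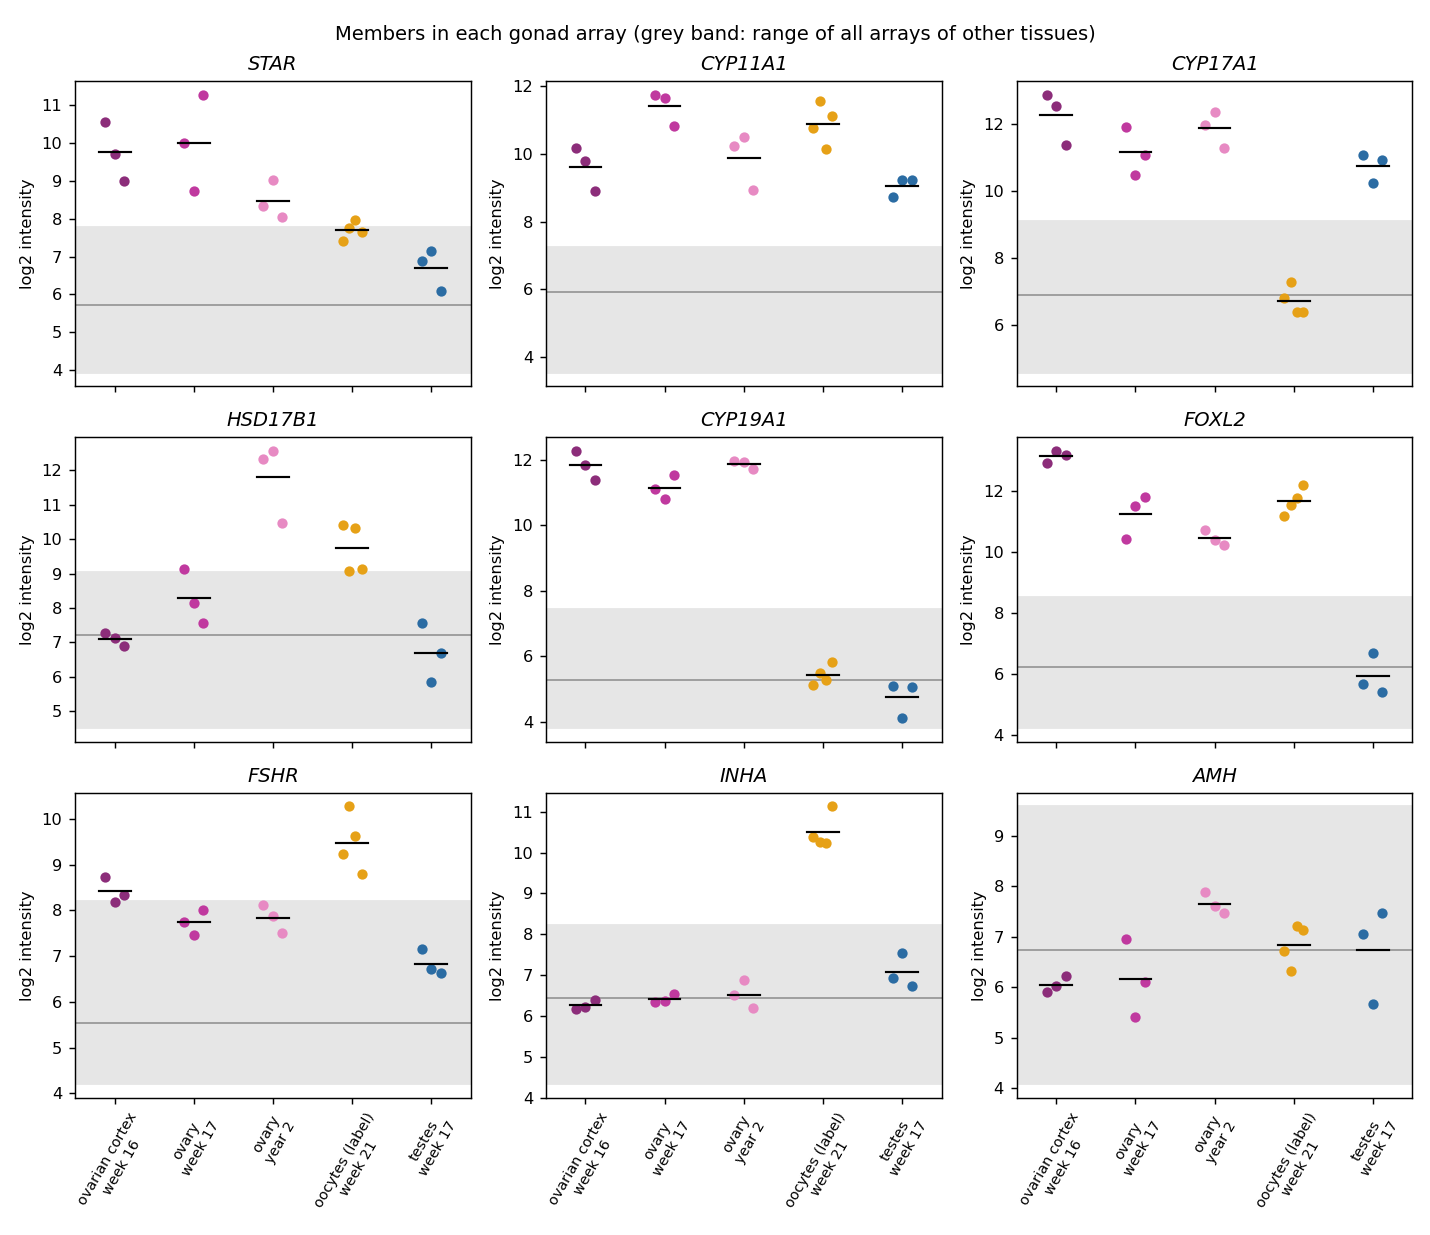
Log2 intensity of each member in the 16 gonad arrays (points, 1 per array, by group on the horizontal axis), with the group mean as a black bar, the range of the 387 other arrays as a grey band and their median as a grey line. CYP11A1 lay above the band in every gonad array, CYP19A1 in the 3 ovary groups alone, and INHA in the oocyte-labelled arrays alone.

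FOXL2 was high in every ovary group and in the oocyte-labelled arrays, and at the level of other tissues in testes. It read 12.93, 13.33 and 13.19 in ovarian cortex, 10.42, 11.50 and 11.80 in ovary of week 17, and 10.72, 10.39 and 10.24 in ovary of year 2. Oocyte-labelled arrays read 11.18, 11.53, 11.79 and 12.19, and testes 5.68, 6.68 and 5.39. Cortex lay above every other group without overlap, week 17 overlapped both year 2 and the oocyte-labelled arrays, and testes stood apart below. It was 5.32 ± 0.36 higher in ovary of week 17 than in testes (adjusted p = 8.24e-11). Cortex lay 1.91 ± 0.36 above ovary of week 17 (adjusted p = 0.00087) and year 2 lay −2.70 ± 0.36 from cortex (2.02e-05). Oocyte-labelled arrays lay 1.22 ± 0.33 above year 2 (adjusted p = 0.00972), which was 0.89 after quantile normalization and then missed the size threshold.

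FSHR was highest in the oocyte-labelled arrays and next highest in cortex. Its chosen probe set read 9.22, 10.27, 9.62 and 8.79 in the oocyte-labelled arrays and 8.72, 8.19 and 8.34 in cortex. It read 7.75, 7.47 and 8.01 in ovary of week 17, 8.11, 7.87 and 7.5 in ovary of year 2, and 7.16, 6.72 and 6.62 in testes. No oocyte-labelled array overlapped another group, the ovaries of week 17 and year 2 overlapped, and testes lay below all. Oocyte-labelled arrays lay 1.73 ± 0.30 above ovary of week 17 (adjusted p = 9.42e-05) and 2.64 ± 0.30 above testes (1.72e-07). They lay 1.06 ± 0.30 above cortex by this probe set (adjusted p = 0.0074) and 0.27 above it by the other (adjusted p = 0.655). The week 17 ovary was 0.91 ± 0.32 above testes by the chosen probe set, short of the size threshold (adjusted p = 0.0269), and 1.5 above by the other (0.00953).

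INHA was high in the oocyte-labelled arrays alone. Its chosen probe set read 10.39, 10.26, 10.24 and 11.13 there. It read 6.17, 6.22 and 6.40 in cortex, 6.34, 6.36 and 6.54 in ovary of week 17, 6.51, 6.87 and 6.19 in ovary of year 2, and 6.93, 7.55 and 6.73 in testes. The 3 ovary groups overlapped and lay about the median of other tissues, 6.44. Oocyte-labelled arrays lay 4.09 ± 0.27 above ovary of week 17 (adjusted p = 1.45e-10) and 3.44 ± 0.27 above testes (5.44e-10). By its s_at probe set the first of these was 6.39 (adjusted p = 1.21e-12). The same probe set put ovary of week 17 −1.72 from testes (adjusted p = 0.000202), where the chosen one gave −0.66 ± 0.28 and did not pass (0.0741).

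AMH depended on which of its 4 probe sets was read. The chosen one read 5.90, 6.02 and 6.22 in cortex, 6.96, 5.40 and 6.10 in ovary of week 17, and 7.88, 7.61 and 7.47 in ovary of year 2. Its values were 6.72, 6.32, 7.21 and 7.13 in oocyte-labelled arrays and 7.05, 5.67 and 7.47 in testes. None of the 16 arrays exceeded the range of other tissues, and the same held for a further pair of AMH probe sets. By the chosen probe set ovary of year 2 lay 1.5 ± 0.39 above week 17 (adjusted p = 0.0149), with the opposite sign by each of the other 3.

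The s_at probe set of AMH was the only one of the 4 that lay above other tissues, and did so in all 16 gonad arrays. It read 12.18, 12.23 and 13.26 in ovary of week 17, 11.81, 11.73 and 11.89 in cortex, and 11.53, 11.71 and 11.59 in ovary of year 2. It read 11.12, 11.44 and 11.53 in testes and 9.79, 10.59, 9.84 and 9.83 in oocyte-labelled arrays. Week 17 lay above all other groups without overlap, year 2 touched testes, and the oocyte-labelled arrays lay below all. By this probe set ovary of week 17 was 1.19 above testes (adjusted p = 0.00224), and the oocyte-labelled arrays were −2.54 from ovary of week 17 (2.12e-07) and −1.35 from testes (0.000292). The group with the highest mean among other tissues, gastrocnemius muscle of day 14, had 7.99 ± 0.46 (SD, n = 4). Choosing by the mean of all arrays favoured a probe set that read 6.73 in the median array of other tissues over this one, which read 5.77 there.

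**Figure D2:**
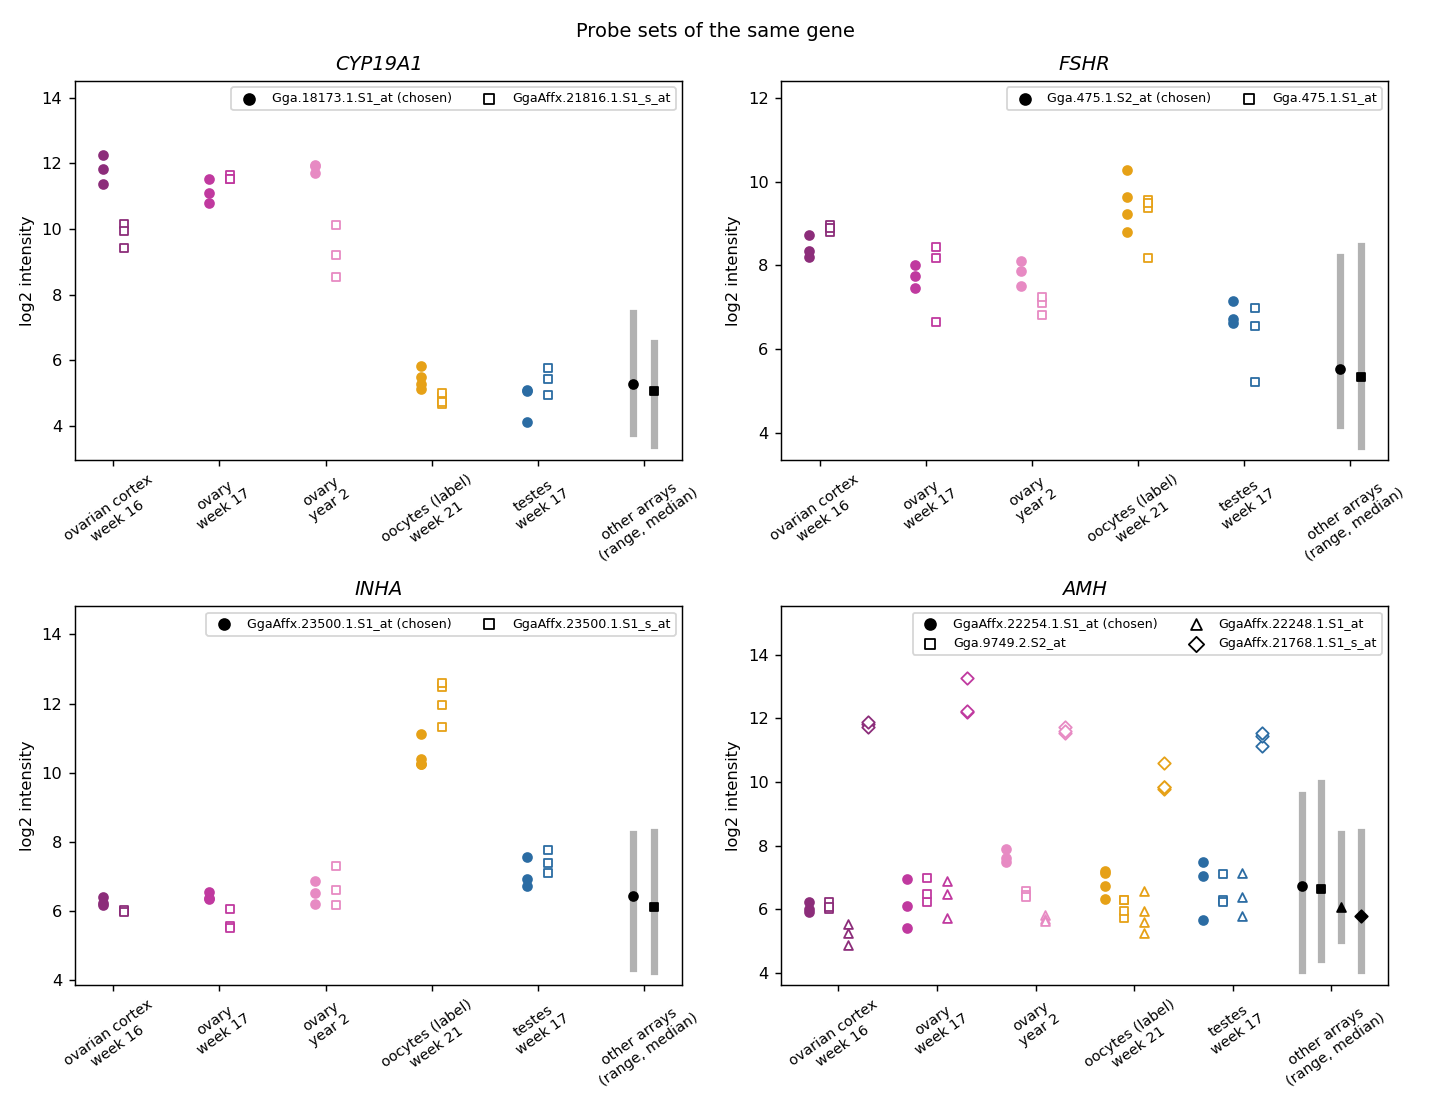
Log2 intensity of every probe set of the 4 members that have more than 1, per array and group, with the range (grey bar) and median (black mark) of the other arrays at the right. The s_at probe set of AMH (open diamonds) lies above its own range in other tissues in every gonad array, and the order of the ovary groups differs between the 2 probe sets of CYP19A1.

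Ovary of week 17 was set against testes of the same age. The arrays of both are labelled male, but HINTW was high in the ovary and low in testes, as given above. Sex and organ cannot be told apart here. Of the 9 members 5 were higher in ovary (STAR, CYP11A1, HSD17B1, CYP19A1 and FOXL2), where 16.3% of all genes tested were, and 0 were lower, where 13.1% were (29.4% in either direction). The median difference over the members was 1.59, and 0.05 over all genes. CYP17A1, FSHR, INHA and AMH did not pass, but 3 of them passed by 1 other probe set each. AMH (1.19) and FSHR (1.5) were then higher in ovary, and INHA was lower (−1.72), by the probe sets and p-values given above. The remaining pair of AMH probe sets gave 0.01 and −0.07 and did not pass (adjusted p = 0.977 and 0.906). Replicate numbers went together here (correlations of deviations from 0.106 to 0.484), and with the number as a block 3752 genes passed in place of 3726 and no member's call changed.

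Ovaries of the 2 ages were compared directly. By the chosen probe sets, array 3 of year 2 read lowest of its group for every member. In cortex array 3 read lowest for STAR, CYP11A1, CYP17A1, HSD17B1 and CYP19A1, and not for the other members. Members thus went together by array here, so counts of members are not counts of separate observations. HSD17B1 and AMH were higher at year 2 than at week 17, 2 members where 5.43% of all genes were higher, and STAR and CYP11A1 were lower, 2 where 4.83% were (10.3% in either direction). The median difference was 0.11 over the members and 0.01 over all genes. The calls of STAR and CYP11A1 were less firm than that of HSD17B1, since both were lost with array weights (adjusted p = 0.0762 and 0.101). That of STAR was also lost with only both groups in the model (0.105). As given above, both were lost too when 1 array number was left out of every group. The CYP11A1 difference did not shrink then (−1.53 and −1.70), but fewer arrays entered. CYP17A1 (0.72 ± 0.40), CYP19A1 (0.72 ± 0.31) and FOXL2 (−0.79 ± 0.36) did not pass (adjusted p = 0.26, 0.13 and 0.155). By its s_at probe set CYP19A1 was lower at year 2 and passed (−2.28, adjusted p = 8.92e-05). For AMH the call rests on the probe set that did not exceed other tissues, and it was lost without array 2 or 3 of each group (1.145 and 1.565, adjusted p = 0.0865 and 0.101). Age cannot be told apart from whatever else differed between these samples, and marker lists of other cell types are given below.

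Ovarian cortex of week 16 differed from ovary of week 17 in 2 members by their chosen probe sets. FOXL2 was higher, 1 member where 8.00% of all genes were, and CYP11A1 lower, 1 where 5.56% were (13.6% in either direction), with a median of −0.11 over the members and 0.06 over all genes. Of the genes called here 1014 were higher and 705 lower, and 1257 and 556 when each array was centred on its median. CYP17A1 differed by 1.11 ± 0.40 (adjusted p = 0.0549), which passed with the replicate number as a block (adjusted p = 0.0316) and after centring (0.04). CYP19A1 was lower in cortex and passed by its s_at probe set (−1.73, adjusted p = 0.000836). AMH did so by 1 of its other probe sets (−1.13, adjusted p = 0.0316). Against cortex, ovary of year 2 had 2 members higher (HSD17B1 and AMH, 7.46% of all genes) and 2 lower (STAR and FOXL2, 10.5%, and 18.0% in either direction). Without array 1 the calls of AMH (adjusted p = 0.0754) and STAR (0.433) were lost, and that of STAR also under other settings, as given above. The AMH difference of 1.61 by the chosen probe set was 0.36, 0.48 and −0.20 by the others, and none of these passed (adjusted p = 0.355, 0.342 and 0.652). FSHR did not pass by its chosen probe set (−0.59 ± 0.32, adjusted p = 0.179). It was lower and passed by its other probe set (−1.83, adjusted p = 0.0046) and with its probe sets averaged (−1.21, 0.0061).

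The oocyte-labelled arrays split the members. Against ovary of week 17, HSD17B1, FSHR and INHA were higher, 3 members where 11.4% of all genes were, and STAR, CYP17A1 and CYP19A1 were lower, 3 where 10.9% were (22.2% in either direction). Against cortex 4 were higher (10.7% of all genes), CYP11A1 with the same 3, and 4 lower (14.0%, and 24.7% in either direction), FOXL2 with the same 3. Against year 2, FOXL2, FSHR and INHA were higher (3 members, 8.30% of all genes) and CYP17A1, HSD17B1 and CYP19A1 lower (3 members, 8.22%, and 16.5% in either direction). Of the genes called in that comparison 1052 were higher and 1042 lower, and 798 and 1251 after quantile normalization. AMH passed in these 3 comparisons only by its s_at probe set, and was lower in oocyte-labelled arrays. It was −2.54 from week 17, −1.80 from cortex and −1.60 from year 2 (adjusted p = 2.12e-07, 1.9e-05 and 0.000145). These comparisons share the oocyte-labelled arrays, so they are not separate evidence. The HSD17B1 difference from week 17, 1.45 ± 0.48 (adjusted p = 0.0222), was lost with array weights (adjusted p = 0.216), without array 3 (0.219) and without array 2 (0.053). Without array 2 the calls of HSD17B1 against year 2 (−1.45, adjusted p = 0.101), of CYP11A1 against cortex (0.0838) and of FSHR against cortex (0.68, 0.132) were lost too. Without array 3 those of FOXL2 against year 2 (adjusted p = 0.094) and of FSHR against cortex (0.0743) were lost, and without array 1 that of STAR against cortex (0.0515).

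The other comparisons with testes share its 3 arrays. Ovary of year 2 had 5 members higher than testes (18.2% of all genes) and 0 lower (13.7%, and 31.9% in either direction), namely STAR, CYP17A1, HSD17B1, CYP19A1 and FOXL2. CYP11A1, at 0.84 ± 0.41 (adjusted p = 0.108), was 1.41 and passed without array 3 (0.00498), while the CYP17A1 call was lost without array 1 or 2, as given above. Cortex also had 5 higher (21.4%) and 0 lower (14.9%, and 36.3% in either direction), namely STAR, CYP17A1, CYP19A1, FOXL2 and FSHR, the last by 1.58 ± 0.32 (adjusted p = 0.000277). INHA was lower in cortex by its s_at probe set (−1.42, adjusted p = 0.00109), and CYP11A1, at 0.57 ± 0.41, passed without array 3 (1.01, 0.0256). Oocyte-labelled arrays had 5 higher (18.4%), namely CYP11A1, HSD17B1, FOXL2, FSHR and INHA, and 1 lower (13.9%, and 32.4% in either direction), CYP17A1.

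**Figure D3:**
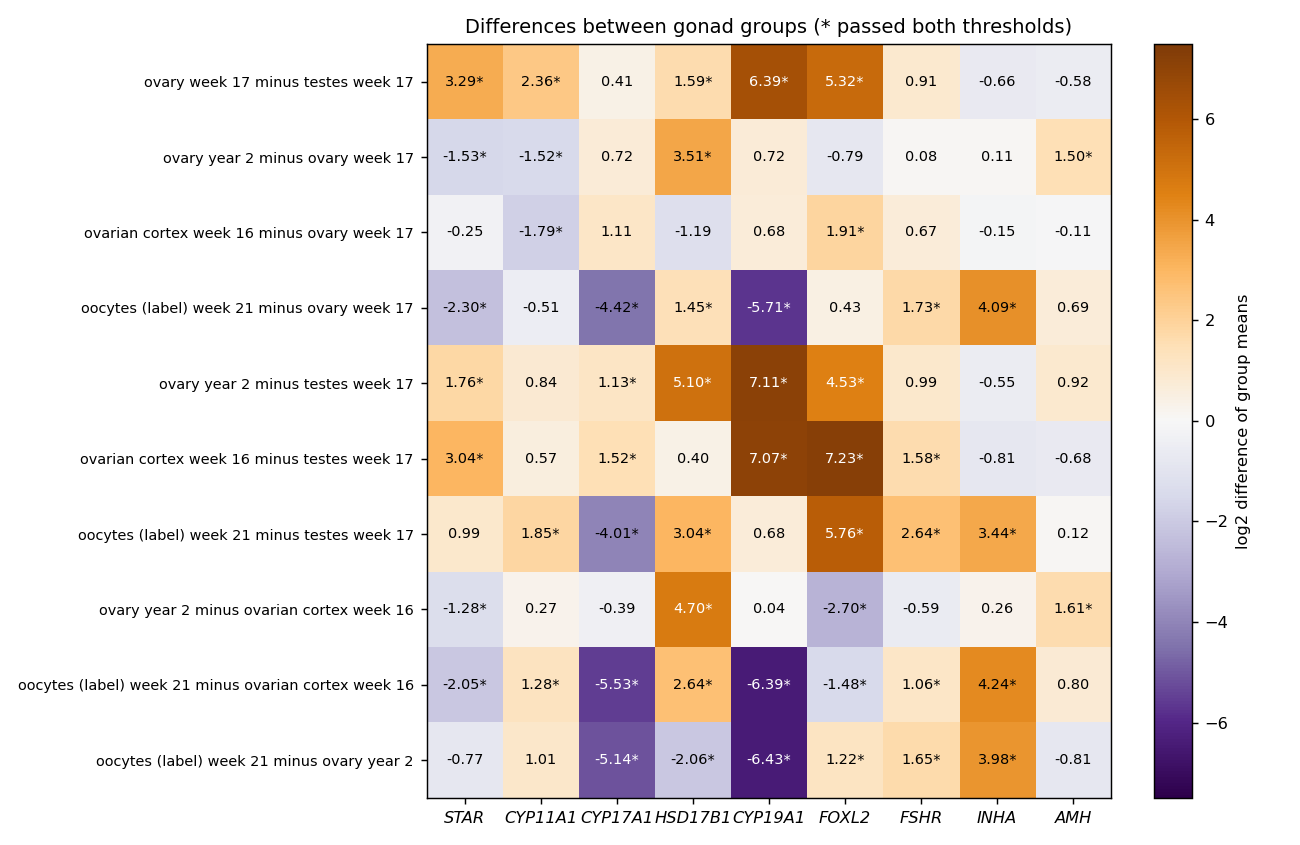
Log2 difference of group means for each member (columns) in the 10 comparisons of gonad groups (rows), coloured from purple (lower in the first group) to orange (higher), with an asterisk where both thresholds were passed. CYP19A1 and FOXL2 differed by 4.53 to 7.23 between each ovary group and testes, and CYP17A1 and CYP19A1 had the most negative differences of oocyte-labelled arrays from ovary groups.

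Other genes of steroid synthesis showed where the pathway differed beside the members. Of 22 measured, 8 were higher and 7 lower in ovary of week 17 than in testes (16.3% and 13.1% of all genes). Their median difference was −0.08. AKR1D1, the 5beta-reductase that inactivates steroids and serves bile acid synthesis, differed most (7.43 ± 0.33, adjusted p = 1.4e-13), followed by CYB5A, a cytochrome b5 that assists CYP17A1 (3.31 ± 0.28, 3.2e-09), and HSD3B1, which turns pregnenolone into progesterone (3.28 ± 0.34, 7.53e-08). HSD17B7 (2.88 ± 0.34, adjusted p = 5.41e-07) and POR (2.22 ± 0.41, 0.000145) were also higher. Of those lower, HSD17B4, the peroxisomal enzyme of the HSD17B family, differed most (−2.01 ± 0.43, adjusted p = 0.000604). HSD3B1 read 10.30, 10.53 and 11.51 in ovary of week 17 and 11.96, 12.31, 12.61 and 12.16 in oocyte-labelled arrays. It read 7.62, 7.17 and 6.84 in cortex, 7.93, 8.44 and 7.47 in year 2 and 8.09, 7.14 and 7.27 in testes, so the groups with the highest HSD3B1 were those with the highest CYP11A1. Oocyte-labelled arrays lay 5.05 ± 0.32 above cortex (adjusted p = 9.49e-11), and year 2 lay −2.83 ± 0.34 from week 17 (1.53e-05). In the latter comparison 1 of the 22 was higher and 4 lower (5.43% and 4.83% of all genes).

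Genes of the adrenal cortex, which makes corticosteroids with the same first enzymes and lies beside the gonad, were also compared. In ovary of week 17 they were higher than in testes and year 2, as STAR, CYP11A1 and HSD3B1 were. In ovarian cortex MC2R was high, as was STAR (mean 9.75, against 9.99 in ovary of week 17), while CYP21A1 and HSD3B1 were not. In oocyte-labelled arrays HSD3B1 and CYP11A1 were high, and CYP21A1 and MC2R were not. Of the 4 measured, CYP21A1, the 21-hydroxylase, MC2R, the receptor of corticotropin, MRAP, its accessory protein, and AKR1B1, 4 were higher in ovary of week 17 than in testes and 4 higher than in ovary of year 2. Of all genes, 16.3% were higher in the first comparison and 4.83% in the second. CYP21A1 read 9.39, 8.60 and 9.97 in ovary of week 17, and between 6.08 and 6.91 in the 13 other gonad arrays. MC2R read 7.75 to 7.93 in ovary of week 17 and 6.43 to 8.23 in cortex, against 4.76 to 5.47 in the other 3 groups. The summed intensity of the list was 7139 to 7509 in ovary of week 17, 9612 to 10733 in cortex, 2585 to 3165 in year 2, 1091 to 2681 in oocyte-labelled arrays and 976.3 to 2792 in testes, most of it from AKR1B1. The part of adrenal RNA in the values of STAR, CYP11A1 and HSD3B1 was not tested.

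Receptors and regulators of the pathway were counted next. Of 15 measured, 4 were higher and 3 lower in ovary of week 17 than in testes (16.3% and 13.1% of all genes). PRLR, the prolactin receptor, differed most and was lower in ovary (−2.61, adjusted p = 2.51e-07), and NR5A2, a relative of NR5A1 that is active in granulosa cells, was also lower (−1.92, 5.27e-05). NR0B1, an orphan receptor that restrains NR5A1, was higher by 2.29 (adjusted p = 2.49e-06) and NR5A1, which activates the steroid genes, by 1.82 (1.05e-05). NR5A1 read 6.48 to 7.30 in testes, 7.66 to 7.97 in cortex, 8.54 to 8.87 in ovary of week 17, 9.32 to 10.03 in year 2 and 11.15 to 11.79 in oocyte-labelled arrays, with no overlap between any of these groups. LHCGR, the receptor of luteinizing hormone, read 9.79 to 10.75 in oocyte-labelled arrays and 7.81 to 8.26 in testes. In oocyte-labelled arrays 6 of the 15 were higher and 1 lower than in ovary of week 17 (11.4% and 10.9% of all genes). PGR, the progesterone receptor, was the lower one (−1.86 ± 0.37, adjusted p = 0.000522). NR5A2 was the widest of those higher at 5.28 ± 0.30 (adjusted p = 2e-11).

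Among 22 genes of the inhibin, activin, AMH and BMP signals 4 were higher and 1 lower in ovary of week 17 than in testes. Of all genes, 16.3% were higher and 13.1% lower, so the list had no excess of called genes here. GDF9 was the widest of those higher (6.10 ± 0.29, adjusted p = 3.31e-13). The one lower was INHBB, the beta B subunit of inhibin and activin (−3.27 ± 0.47, adjusted p = 7.7e-06). INHBB read 9.82 to 11.07 in oocyte-labelled arrays, 8.44 to 10.02 in testes, 7.99 to 10.18 in year 2, 6.11 to 6.54 in cortex and 5.56 to 6.75 in ovary of week 17. INHA shared the high level in oocyte-labelled arrays. In testes it read 7.07 ± 0.43 (SD, n = 3) by its chosen probe set and 7.42 by its s_at probe set, by which testes were above ovary of week 17 and cortex. In oocyte-labelled arrays 8 of the 22 were higher than in ovary of week 17 and 4 lower (11.4% and 10.9% of all genes). GDF9, itself on this list, was the widest at −5.66 (adjusted p = 1.69e-12). The widest of the higher ones were SMAD2, a messenger of activin, at 4.68 ± 0.32 (adjusted p = 4.01e-10), INHBB at 4.30 ± 0.44 (1.22e-07) and FST, the activin antagonist follistatin, at 3.77 ± 0.38 (9.5e-08). FST was also higher in year 2 than in week 17 (2.76 ± 0.41, adjusted p = 0.000127). Of 12 other granulosa and theca genes 3 were higher and 1 lower in ovary of week 17 than in testes (16.3% and 13.1% of all genes). WNT4, a signal of the female gonad, led them (4.24 ± 0.27, adjusted p = 3.3e-11). WNT4 read 9.83 to 11.84 over the 13 arrays of the ovary and oocyte-labelled groups and 5.77 to 5.89 in testes, and FOXL2 likewise did not overlap between them.

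**Figure D4:**
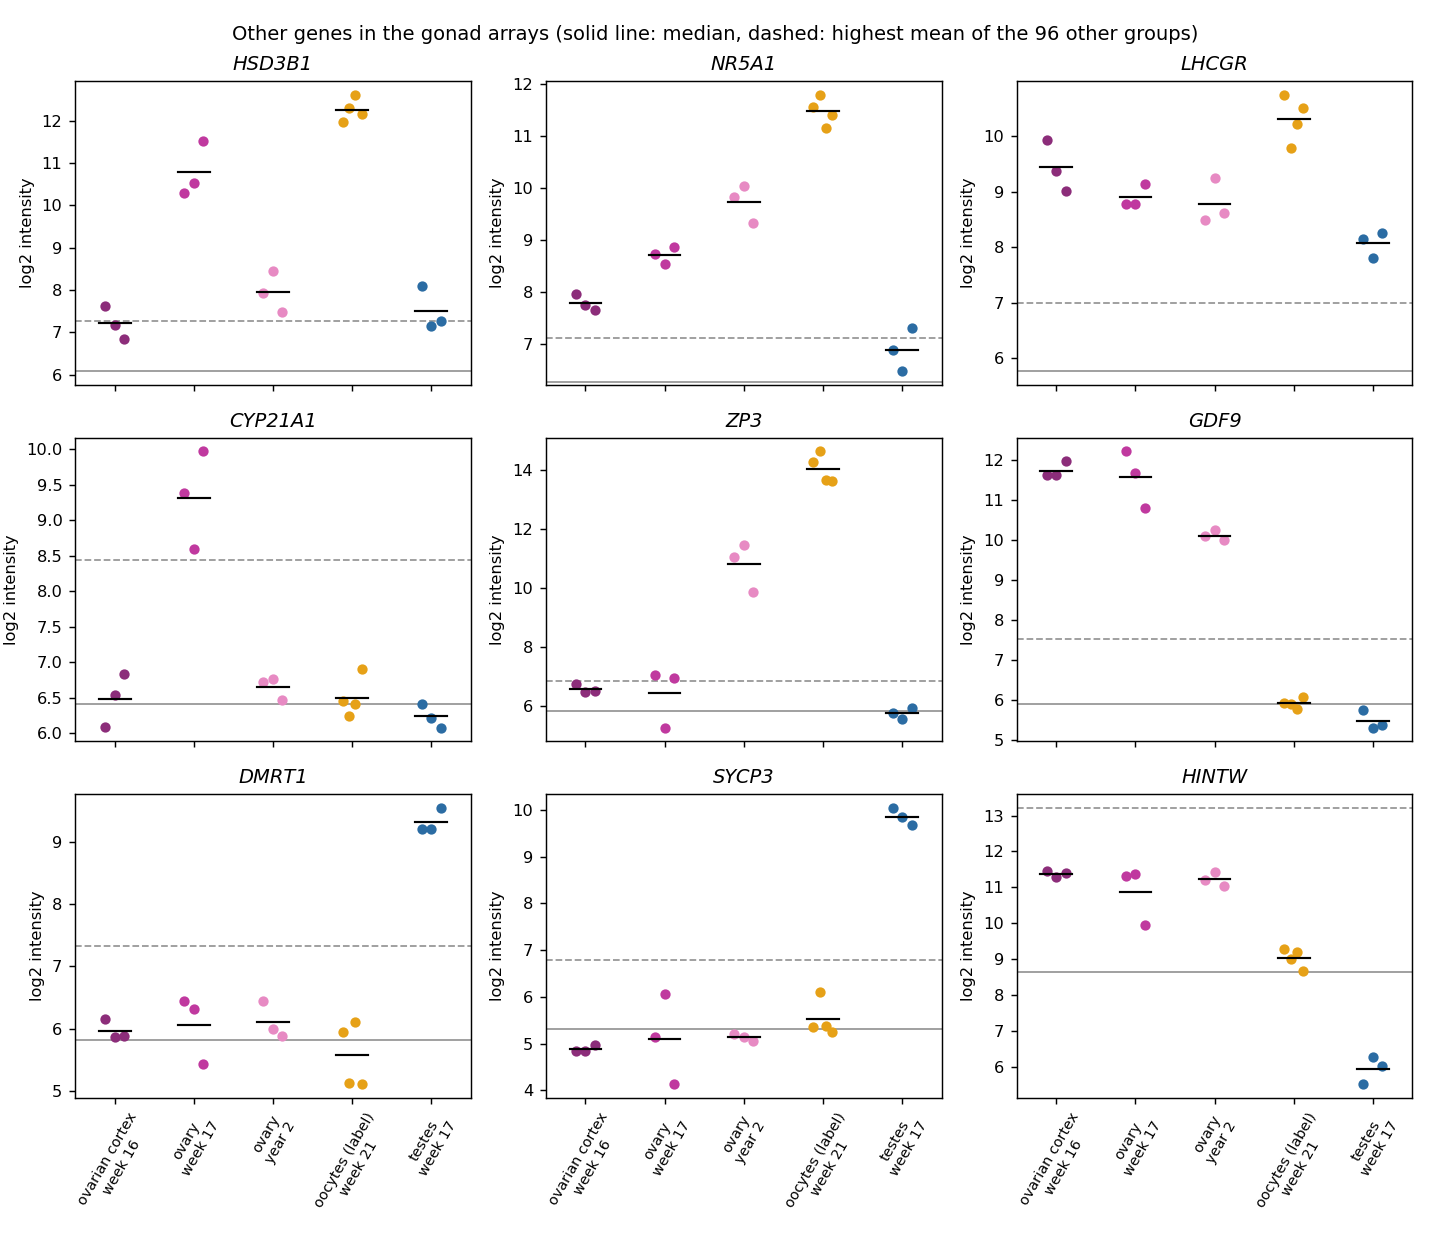
Log2 intensity per gonad array of 9 genes that are not members, with the group mean as a black bar and the median (solid) and highest mean (dashed) of the 96 other groups as grey lines. HSD3B1 was high in ovary of week 17 and in oocyte-labelled arrays, CYP21A1 in ovary of week 17 alone, and GDF9 in the 3 ovary groups and not in the arrays labelled oocytes.

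The oocyte-labelled arrays were set against oocyte genes as a check of their label. GDF9, a growth factor that oocytes secrete, read 5.93, 5.90, 5.76 and 6.07 there, 10.00 to 12.22 in the 3 ovary groups and 5.30 to 5.74 in testes. Of 15 measured genes of oocytes and the egg coat 12 were lower than in ovary of week 17 and 2 higher (10.9% and 11.4% of all genes). The pair that was higher was ZP3, an egg coat protein that hens make in granulosa cells (7.63 ± 0.39, adjusted p = 3.71e-12), and UMOD, which the gene table pairs with the egg coat name ZPD (6.75 ± 0.25, 3.46e-14). ZP3 read 13.62 to 14.62 in oocyte-labelled arrays, 9.85 to 11.46 in year 2, 6.46 to 6.74 in cortex and 5.25 to 7.03 in ovary of week 17. Set against other tissues instead, 7 of the 15 had a mean in the oocyte-labelled arrays above that of every group outside the gonads. The share of all genes that did so was not counted, so whether this is an excess was not tested. Among these BTG4 read 7.79 to 8.69, with the highest mean of another group at 6.32, and DAZL 8.89 to 9.23, with 6.68. GDF9 thus was at the level of other tissues, while part of the list was above it.

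Markers of stroma and leukocytes and the globin HBA1 were low in the oocyte-labelled arrays, and those of Sertoli and Leydig cells were mixed. COL3A1, a collagen of connective tissue, read 6.32 to 6.96 in oocyte-labelled arrays, 10.55 to 11.50 in cortex, 11.19 to 12.26 in testes, 12.37 to 12.74 in ovary of week 17 and 13.13 to 13.42 in year 2. HBA1, a globin of red cells, read 5.12 to 6.88 in oocyte-labelled arrays, 8.16 to 10.12 in cortex, 11.35 to 12.73 in ovary of week 17 and 12.73 to 12.97 in year 2. The summed intensity of 9 stroma and smooth muscle genes was 760.5 to 927.2 in oocyte-labelled arrays, 5108 to 8716 in cortex, 8163 to 9893 in testes, 13418 to 17099 in ovary of week 17 and 24706 to 37245 in year 2. Of these 9, 7 were lower in oocyte-labelled arrays than in ovary of week 17, and 2, COL1A2 and COL1A1, were higher in year 2 than in week 17. For this and the next list, the shares of all genes were 10.9% and 5.43% in these comparisons. The 9 leukocyte genes summed to 14342 to 25608 in year 2, 8089 to 10048 in ovary of week 17 and 1009 to 1425 in oocyte-labelled arrays, with 2 higher in year 2 than in week 17 and 5 lower in oocyte-labelled arrays. The 8 Sertoli and Leydig genes summed to 5273 to 7875 in oocyte-labelled arrays, 3690 to 4509 in testes and 1431 to 3153 in the 3 ovary groups. The order of these sums is not that of each gene. HEMGN had a mean of 12.16 in oocyte-labelled arrays and 7.24 in testes. CLDN11 read 8.43 to 9.82 in oocyte-labelled arrays and 11.07 to 11.59 in testes. In oocyte-labelled arrays 3 of the 8 were higher than in ovary of week 17, HEMGN by 2.68, CLDN11 by 2.55 and ETV5 by 1.34, and 2 were lower. For this and the next list, 11.4% of all genes were higher in oocyte-labelled arrays and 10.9% lower. Of 8 endothelial genes 1, CLDN5, was higher there (1.84, adjusted p = 1.47e-06) and 3 were lower. The part of these cells in the members' differences was not tested. Of 18 genes of meiosis and sperm 14 were lower in ovary of week 17 than in testes, where 13.1% of all genes were lower and 16.3% higher. The 8 genes of Sertoli and Leydig cells were divided, with CLDN11 and DMRT1 lower in that ovary and HEMGN, ETV5, SOX8 and PDGFRA higher. DMRT1, a testis-determining gene of birds, read 9.21 to 9.54 in testes and 5.11 to 6.45 in the other gonad arrays.

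Most members were higher in the mean of the ovary groups than in other tissues, which were all of younger ages. The mean of the 3 ovary groups was set against the mean of the 58 somatic groups of the same run of sample numbers, with 251 arrays and 13036 genes in the fit. Of the 9 members 7 were higher, where 14.1% of all genes were, and 0 lower, where 5.20% were (19.3% in either direction), with a median of 3.64 over the members and −0.03 over all genes. The members were chosen as genes of the gonad, so this excess is no test. CYP19A1 differed by 6.24 ± 0.11 (adjusted p = 6.76e-127), FOXL2 by 5.84 ± 0.11 (3.02e-118), CYP17A1 by 4.78 ± 0.11 (1.38e-104) and CYP11A1 by 4.34 ± 0.10 (8.71e-101). STAR differed by 3.64 ± 0.10 (adjusted p = 2.43e-86), FSHR by 2.41 ± 0.11 (5.54e-55) and HSD17B1 by 1.69 ± 0.14 (5.21e-25). The spread in this fit is shared with the somatic groups. In cortex, week 17 and year 2 the SDs were 0.78, 1.27 and 0.51 for STAR and 0.19, 0.80 and 1.14 for HSD17B1. They were 0.66, 0.51 and 0.85 for CYP11A1 and 0.78, 0.71 and 0.53 for CYP17A1. The SEs and p-values of these members are therefore too small here. The HSD17B1 value is a mean of unlike groups, with 11.79 in year 2, 8.28 in week 17 and 7.09 in cortex, against 7.36 in somatic groups. INHA did not pass (−0.16 ± 0.08, adjusted p = 0.0852), nor did AMH by its chosen probe set (−0.15 ± 0.11, 0.232), while its s_at probe set gave 6.15. In testes 3 of the 9 were higher than in somatic groups, where 15.6% of all genes were, and 0 lower, where 12.4% were (28.0% in either direction). These were CYP17A1 (3.77 ± 0.18, adjusted p = 9.34e-50), CYP11A1 (3.09 ± 0.17, 2.7e-41) and FSHR (1.25 ± 0.18, 7.66e-10), and the FSHR call was lost by its other probe set (0.77, 0.0012). By other settings more members passed in testes. INHA was higher by its s_at probe set (1.18, adjusted p = 7.88e-11), STAR was higher without array 3 (1.25, 5.1e-09) and HSD17B1 was lower without array 1 (−1.09, 0.000366).

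A few somatic groups stood out for single members. FSHR had 7.80 ± 0.23 (SD, n = 4) in spleen of day 28, beside 7.74 ± 0.27 (n = 3) in ovary of week 17. FOXL2 had 8.34 ± 0.16 (n = 4) in spleen of day 21, below every ovary array but above testes. STAR had 7.14 ± 0.76 (n = 4) in spleen of day 28, where testes had 6.70 ± 0.55 (n = 3). CYP19A1, which brain also uses, was next highest by its chosen probe set in brain of day 42 with 6.43 ± 0.43 (n = 4) and in cerebral cortex of day 7 with a mean of 6.35. By its s_at probe set the highest somatic means were 6.21 in liver of day 56 and 5.90 in brain of day 0. These differences between somatic groups were not tested. AMH was high in liver of day 56 by 1 of its probe sets (9.89 ± 0.08, n = 3), with the next group of that probe set at 7.79.

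**Figure D5:**
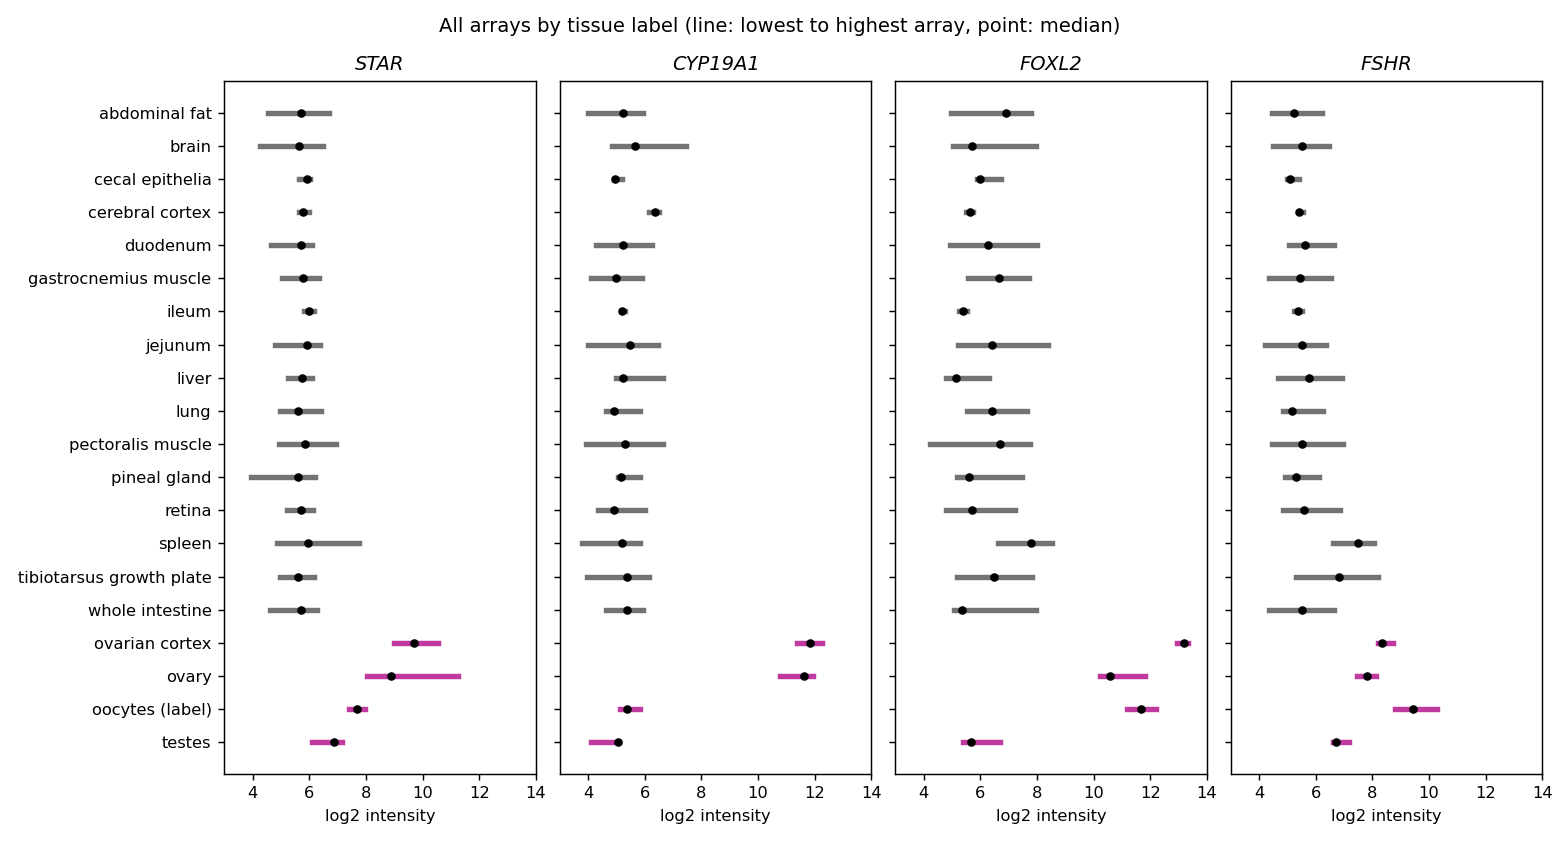
Lowest to highest log2 intensity (lines) and median (points) of all arrays by tissue label for 4 members, somatic tissues in grey and gonads in magenta. CYP19A1 lay above 10 in ovary and ovarian cortex alone, while the range of FSHR in ovary overlapped those of spleen and growth plate.

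For each member the genes most like it were taken by the Pearson correlation of the means of all groups, 96 of them not gonadal and 5 gonadal, which share arrays, normalization and the contrast of gonads with other tissues, so the values describe and are given with no test. CYP11A1 was closest to FDX1B (0.906), a ferredoxin by its gene name, with 11.95 in ovary of week 17, 11.87 in oocyte-labelled arrays and 8.06 to 9.45 in the other gonad groups. HEMGN (0.867) and LHCGR (0.857) followed. STAR was closest to LOC422926 (0.911) and ZAR1L (0.893), and CYP19A1 to ZAR1L (0.898), LOC415414 (0.886) and BTG4 (0.885). ZAR1L and BTG4 are on the list of oocyte genes, and they had means from 10.30 to 11.63 in the 3 ovary groups. CYP17A1 was closest to FAM172BP (0.9), SPO11 (0.881), which cuts DNA in meiosis, and TCFL5 (0.868). AMH was closest to DAZL (0.913), a germ cell gene, and CYP11A1 (0.864) by its s_at probe set, and to DCTN2 (0.813), a dynactin subunit, by its chosen probe set. INHA was closest to LOC426093 (0.853) and also near UMOD (0.809), and FOXL2 to SPIRE1L (0.856). FSHR was closest to DSCC1 (0.736) and HSD17B1 to GATSL3 and LGSN (0.773 each), the loosest nearest genes among the chosen probe sets. By its other probe set FSHR was closest to MNX1 (0.816).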

How the data were processed

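The values are log2 intensities deposited by the authors, 1 per probe set and array. Affymetrix Expression Console 1.1 made them, per the submitters' processing notes, by a normalization not given in the sources used here. Of 38535 probe sets, 96 controls were left out, 27168 carried 1 gene symbol in the platform annotation and 26853 of these were found in RefSeq's gene table. Arrays have no read depth, so their number limits the precision.

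For each gene the brightest probe set on average was kept, and it was tested where its highest group mean reached percentile 25 of the values modelled (5.6 for gonads). Group means were compared in limma 3.58.1 (R 4.3.3, with data.table version 1.17.8), with Benjamini-Hochberg adjustment across the genes of each contrast. The procedure was tested on simulated data. Figures used matplotlib 3.10.9 in Python 3.11.15.

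All members are named in the comparisons, from each gene list mainly genes with large differences, and up to 3 nearest genes per member. Genes of the cell-type checks are named with their levels. The members and lists were chosen with earlier results of these data known.

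Whether like-numbered arrays pair was checked through correlations of their deviations from group means. Every pair exceeded 0.1 for ovary of week 17 and testes, where 2 of 3 arrays correlated best with the like-numbered one. No label states pairs, and in no other comparison did every pair exceed 0.1.

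Alternatives were a filter at percentile 50 and none, centring on array medians, quantile normalization, averaging the probe sets of a gene, the members' other probe sets, weighting of arrays, a robust fit with a trend, a replicate block, models of only the groups compared, and leaving out each replicate number. Leaving out a number dropped that array from every group that had it, so fewer arrays entered. A call could then be lost without a smaller difference.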

Additional observations from a re-analysis of the deposited data

Results flagged for a closer look

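Of the 15 probe sets of the members, 3 had 1 array far from the other 3 in the oocyte-labelled group, the only gonad group large enough for this check (Dixon's ratio above 0.829; chance gives about 1 in 20). The lowest array of FSHR by the probe set that was not chosen read 8.17, with the next at 9.37. The highest array of INHA by its chosen probe set read 11.13, with the next at 10.39. The highest array of AMH by its s_at probe set read 10.59, with the next at 9.84.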

How the results depend on the processing

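Over 1439 values of a member in a comparison under another setting, 1360 kept the side of the thresholds, 38 lost a call and 26 gained one. A further 15 turned, that is, changed sign where either value passed. The 1360 include changes of sign where neither value passed. Examples are FSHR in year 2 against week 17 (0.08 by the chosen probe set, −0.70 by the other) and CYP19A1 in oocyte-labelled arrays against testes (0.68 and −0.56). Those that turned were CYP19A1 by its s_at probe set, with cortex and year 2 at −1.73 and −2.28 from ovary of week 17, and AMH. By its s_at probe set, AMH was −1.80, −2.54 and −1.35 in oocyte-labelled arrays against cortex, ovary of week 17 and testes, 1.19 in ovary of week 17 against testes, −0.20 and −0.95 in year 2 against cortex and week 17, and 6.15 and 5.52 in the ovary groups and testes against somatic groups. Year 2 against week 17 was −0.09 and −0.64 by the pair of AMH probe sets not above other tissues, and −0.045 when the AMH probe sets were averaged, by which the 2 somatic comparisons were 1.33 and 1.41.

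When probe sets of a gene were averaged, 845 genes were called for year 2 against week 17 in place of 1300, 1001 for cortex against week 17 in place of 1719 and 1382 for year 2 against cortex in place of 2275; the cause was not tested. Leaving out each replicate number gave 456 to 1299, 909 to 1729 and 1425 to 2268 in these, lowest without replicates 2, 1 and 1. The first was also 561 without replicate 3, and the second 1104. Fewer arrays then enter. The other 9 counts stayed within 1.5 times under every setting run. With the replicate number as a block no count moved by over 1.5 times (1411, 1795 and 2335 in the same 3 comparisons), and it changed 2 member calls, STAR and CYP17A1, given in the report. Like-numbered arrays of the oocyte-labelled group and ovary of week 17 had correlations of 0.0709 to 0.521, with all 3 going best with their own number, a hint from the data and not from the design.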
